A study of Mus musculus with 12 samples.

Results

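The S100A calcium-binding proteins were followed in ear skin of specific-pathogen-free (SPF) and germ-free (GF) mice after ethanol or MC903. The family was taken as the 10 genes S100a8, S100a9, S100a7a, S100a3, S100a4, S100a6, S100a10, S100a11, S100a14 and S100a16, matched by symbol in a table of 24532 genes measured by bulk RNA sequencing. All 10 were in the table and all 10 passed the filter on low counts, as did 16466 genes in all. The 4 groups of 3 libraries were SPF skin with ethanol, the vehicle, SPF skin with MC903, GF skin with ethanol and GF skin with MC903. MC903, also named calcipotriol, is an analogue of vitamin D whose use on mouse skin gives an inflammation like atopic dermatitis, and all groups received 5 applications. The labels give the strain as C57BL/6 in 9 libraries. For GF MC903 4, GF ethanol 5 and GF MC903 5 the label ends in 7, 8 and 9, a number that climbs with the order of the entries. Age, sex and genotype are not given, and neither is whether each library came from its own animal, so p-values reflect variation among libraries, which may be technical.

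S100 proteins are small proteins with a pair of EF-hand loops that bind calcium, and most act as dimers that open a binding surface for a partner when calcium arrives. Most of their genes lie side by side in the epidermal differentiation complex, next to genes of the cornified envelope. In skin, S100a8 and S100a9 are known as the subunits of calprotectin, which withholds zinc and manganese from microbes and signals through Toll-like receptor 4 and RAGE. Neutrophils carry calprotectin in bulk, and keratinocytes make it in inflamed epidermis. S100a4, S100a6, S100a10 and S100a11 act mainly inside cells, on myosin, on calcyclin-binding protein and on annexins.

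All 10 genes lie on chromosome 3 of GRCm38, the build of the files, in 2 blocks. From left to right the first block holds S100a14 (90526849 to 90528837), S100a16 (90537254 to 90543151), S100a3 (90560356 to 90602706), S100a4 (90603770 to 90606045), S100a6 (90612894 to 90614414), S100a7a (90651925 to 90658130), S100a8 (90669071 to 90670034) and S100a9 (90692630 to 90695721). A gap of 2824774 bases follows, and then come S100a11 (93520496 to 93526288) and S100a10 (93555117 to 93564645). All are protein-coding. In the RefSeq annotation the S100a3 gene spans S100a2 and Gm23464, so reads of these cannot be separated from reads of S100a3 with certainty. The use of strand in counting is not given in the sources used here.

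Promoter windows from RefSeq (GRCm38.p6, the 250 bases before the annotated start) matched 8 of the 10 genes. They were searched on both strands for AP-1 (TGANTCA), C/EBP (TTGCNNAA), STAT (TTCNNNGAA), a TATA box (TATAAA), the NF-kB motif and the direct repeat bound by the vitamin D receptor. The windows shown are those of the 3 members with the largest rises in SPF skin, of S100a4, whose response to MC903 was the smallest, and of S100a11, which holds 2 matches. The S100a7a window precedes a start site inside the span given above. Each is written 5′ to 3′ on the strand of the gene, with the matched letters in capitals.
S100a8, chr3:90668821-90669070, plus strand: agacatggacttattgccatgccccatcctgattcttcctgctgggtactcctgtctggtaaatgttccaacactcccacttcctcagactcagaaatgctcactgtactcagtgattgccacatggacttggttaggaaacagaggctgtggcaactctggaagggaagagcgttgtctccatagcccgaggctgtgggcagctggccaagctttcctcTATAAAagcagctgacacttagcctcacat
S100a9, chr3:90695722-90695971, minus strand: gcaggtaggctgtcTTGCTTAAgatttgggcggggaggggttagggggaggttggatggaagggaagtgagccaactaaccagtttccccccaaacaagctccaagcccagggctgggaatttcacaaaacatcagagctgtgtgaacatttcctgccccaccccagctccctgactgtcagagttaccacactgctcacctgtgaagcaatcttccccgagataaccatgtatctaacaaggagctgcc
S100a7a, chr3:90654052-90654301, plus strand: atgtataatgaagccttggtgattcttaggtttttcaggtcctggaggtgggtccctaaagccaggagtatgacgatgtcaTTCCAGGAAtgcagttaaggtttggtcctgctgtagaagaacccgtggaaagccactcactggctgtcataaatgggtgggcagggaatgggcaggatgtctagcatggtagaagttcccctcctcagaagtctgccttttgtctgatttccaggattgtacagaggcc
S100a4, chr3:90603520-90603769, plus strand: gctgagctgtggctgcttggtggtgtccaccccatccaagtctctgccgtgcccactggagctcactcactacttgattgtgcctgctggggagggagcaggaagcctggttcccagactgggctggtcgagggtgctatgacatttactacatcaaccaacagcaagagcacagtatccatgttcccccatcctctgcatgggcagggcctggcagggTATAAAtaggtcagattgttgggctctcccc
S100a11, chr3:93520246-93520495, plus strand: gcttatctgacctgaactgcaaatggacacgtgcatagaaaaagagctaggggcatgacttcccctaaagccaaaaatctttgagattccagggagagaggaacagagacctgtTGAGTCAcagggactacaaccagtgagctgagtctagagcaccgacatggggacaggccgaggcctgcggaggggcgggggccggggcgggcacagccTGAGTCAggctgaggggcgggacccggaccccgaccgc

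Counting back from the start site, the S100a8 window has the TATA letters at -30 to -25 and the S100a4 window at -31 to -26. A TATA match stands in 12.4% of the 32851 promoter windows of this length. The S100a9 window has 1 C/EBP match (TTGCTTAA) at -236 to -229, a motif in 9.56% of windows. S100a7a has 1 STAT match (TTCCAGGAA) at -169 to -161, a motif in 7.02% of windows. S100a11 has 2 AP-1 matches (TGAGTCA), at -136 to -130 and at -38 to -32, and 6.75% of windows hold the motif at least once. Of the other windows, 1 of S100a16 held an AP-1 match and 1 of S100a3 a TATA match, and the S100a6 window held none of the letters searched. No member's window held the NF-kB letters, found in 4.94% of windows, or the vitamin D receptor repeat, found in 0.548%. These matches describe letters and say nothing of binding.

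Levels below are CPM, that is, counts scaled to the size of the library after TMM normalization. Changes are log2 fold changes with their standard error (SE) from edgeR's quasi-likelihood test, adjusted by Benjamini-Hochberg over the 16466 genes and called at 0.05. Library totals were 36358294 to 48225425 estimated counts. Skin markers were present in every group, and summed basal keratinocyte markers ranged from 12201.6 CPM in the lowest SPF ethanol library to 33189.6 in the highest SPF MC903 library.

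MC903 raised 9 of 10 members in SPF skin and 10 of 10 in GF skin, and no member fell in either. Of all genes tested, 35% rose and 38.8% fell in SPF skin (73.8% called), and 33.4% rose and 35.1% fell in GF skin (68.5% called). The median log2 change of the members was 2.21 in SPF skin, beside -0.1 over all genes, and 1.67 in GF skin, beside -0.07. Libraries of the ethanol and MC903 groups did not overlap for 9 members in SPF skin and 10 in GF skin, where 76.7% and 74% of all genes did not overlap. The rises ran from 1.57-fold for S100a4 in GF skin to 67.4-fold for S100a8 in GF skin.

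**Figure D1:**
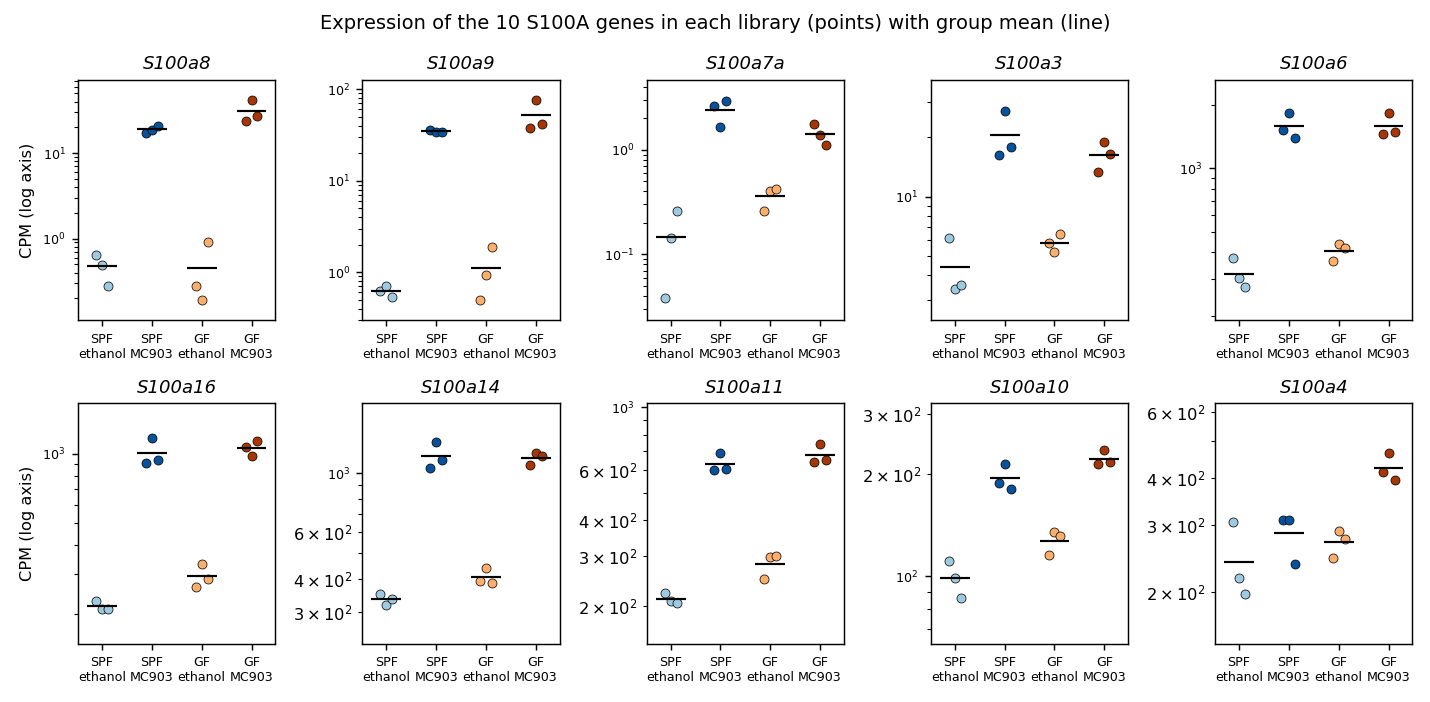
Level of each member in each of the 12 libraries, in CPM on a log axis, with 1 panel per gene and the 4 groups along the x axis. Points are libraries and lines are group means. With MC903 the libraries of S100a8 lie between 17.4 and 42.3 CPM, all above the ethanol libraries at 0.19 to 0.903, whereas those of S100a4 overlap in SPF skin.

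S100a8 was low with ethanol and had the largest change of the family in GF skin. In SPF skin it stood at 0.646, 0.495 and 0.277 CPM in ethanol libraries 1, 2 and 3 and at 17.4, 18.6 and 20.6 CPM in the MC903 libraries. In GF skin it stood at 0.281, 0.19 and 0.903 CPM in ethanol libraries 1, 4 and 5 and at 23.6, 42.3 and 27 CPM with MC903. Every MC903 library lay far above every ethanol library, and GF MC903 4 was the highest of all. The change was 5.32 in SPF skin (SE 0.41, 39.8-fold, adjusted p = 1.4e-07, edgeR) and 6.08 in GF skin (SE 0.42, 67.4-fold, adjusted p = 1e-07). GF ethanol 5 held 43 counts against 14 and 9 in the other GF ethanol libraries, and without it the GF change was 7.02.

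S100a9, the partner subunit, followed the same order of libraries with MC903 in GF skin. Its SPF levels were 0.627, 0.701 and 0.535 CPM with ethanol and 35.6, 33.8 and 34.1 CPM with MC903. In GF skin the levels were 0.501, 0.929 and 1.89 CPM with ethanol and 38.1, 75.9 and 41.5 CPM with MC903. The SPF MC903 libraries lay close together, while GF MC903 4 stood well above the other GF libraries. S100a9 rose by 5.79 in SPF skin (SE 0.4, 55.4-fold, adjusted p = 5.5e-08, edgeR) and by 5.55 in GF skin (SE 0.38, 46.9-fold, adjusted p = 1.1e-07). Without GF ethanol 5 the GF change was 6.18.

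S100a7a is the mouse counterpart of the human psoriasin genes, named for psoriasis. It was the least abundant member. Its counts with ethanol were 2, 7 and 14 in SPF skin and 13, 19 and 20 in GF skin, or 0.038 to 0.258 CPM and 0.261 to 0.42 CPM. With MC903 it reached 2.62, 1.65 and 2.9 CPM in SPF skin and 1.76, 1.39 and 1.12 CPM in GF skin. The MC903 libraries did not overlap the ethanol libraries in either housing, but the gap was wider in SPF skin on both sides. S100a7a rose by 3.99 in SPF skin (SE 0.45, adjusted p = 5e-06, edgeR) and by 1.97 in GF skin (SE 0.42, adjusted p = 0.001). Without SPF ethanol 3 the SPF change was 4.69.

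S100a3 is a cysteine-rich member known from the hair cuticle, where the peptidylarginine deiminase Padi3 modifies it. It stood at 6.17, 3.42 and 3.58 CPM in SPF ethanol libraries and at 16.3, 27.1 and 17.9 CPM with MC903. In GF skin it stood at 5.85, 5.24 and 6.47 CPM with ethanol and at 13.3, 18.9 and 16.4 CPM with MC903. Groups of different treatment did not overlap, and those of different housing did. S100a3 rose by 2.22 in SPF skin (SE 0.25, adjusted p = 4e-06, edgeR) and by 1.47 in GF skin (SE 0.24, adjusted p = 0.00016). Padi3 rose by 5.57 and 4.17 beside it. Hair cuticle and matrix markers moved in both directions, with 7 of 14 tested higher in SPF skin and 8 in GF skin and 2 lower in each. Their summed level went from 33.4 to 36.5 CPM up to 2346.6 to 3838.1 CPM in SPF skin, and from 37.4 to 45.7 CPM up to 1146.9 to 1172.9 CPM in GF skin. The marker list holds Tchh, which made up most of that sum with MC903. Among its keratins, Krt34 went from 0.0649 to 11.7 CPM in SPF skin and from 0.143 to 21.5 CPM in GF skin. Krt32 went from 2.74 to 1.14 CPM and from 2.94 to 1.76 CPM, and group means of Krt82 were at most 0.227 CPM. The part of hair cells in the S100a3 result was not tested.

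Of the abundant members, S100a6, S100a16, S100a14 and S100a11 rose between 2.41- and 4.98-fold in both housings. S100a6, or calcyclin, named for its link to the cell cycle, stood at 378.2, 301.7 and 273.8 CPM in SPF ethanol libraries and at 1522.4, 1837.8 and 1391.6 CPM with MC903. In GF skin its levels were 364.2, 439.2 and 419.5 CPM with ethanol and 1462.4, 1841.6 and 1487.4 CPM with MC903. The treatments were far apart in both housings, and the housings overlapped under either treatment. S100a6 rose by 2.32 in SPF skin (SE 0.15, adjusted p = 2.4e-08, edgeR) and by 1.97 in GF skin (SE 0.14, adjusted p = 1.8e-07).

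S100a16, a widely expressed member whose protein can pair with S100a14, went from 216.8 ± 10.4 to 1003.8 ± 144.1 CPM in SPF skin (SD, n = 3) and from 293 ± 35.7 to 1059.7 ± 78.7 CPM in GF skin. The changes were 2.21 (SE 0.11, adjusted p = 4.2e-09, edgeR) and 1.85 (SE 0.11, adjusted p = 3.8e-08). S100a14, which is made mostly in epithelia, stood at 352.2, 318.8 and 335.3 CPM in SPF ethanol libraries and at 1049.8, 1310.5 and 1119.1 CPM with MC903. The GF libraries of S100a14 lay at 392.7, 440.0 and 385.1 CPM with ethanol and at 1070.6, 1195.0 and 1162.0 CPM with MC903. It rose by 1.79 (SE 0.09, adjusted p = 3.9e-09, edgeR) and by 1.49 (SE 0.09, adjusted p = 3.8e-08). Of these neighbouring genes at the left end of the first block, S100a16 had the larger change in each housing.

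S100a11, which binds annexin A1 and takes part in the cornified envelope, stood at 221.4, 208.2 and 203.6 CPM in SPF ethanol libraries and at 600.8, 689.5 and 605.7 CPM with MC903. Its GF levels were 247.3, 295.5 and 297.8 CPM with ethanol and 638.3, 742.5 and 649.4 CPM with MC903. All 4 groups were tight, and GF ethanol libraries stood above SPF ethanol libraries without overlap. S100a11 rose by 1.58 in SPF skin (SE 0.09, adjusted p = 1.1e-08, edgeR) and by 1.27 in GF skin (SE 0.09, adjusted p = 1.3e-07). S100a10, a member that has lost calcium binding and sits in a complex with annexin A2, was at 111.1, 99.1 and 86.6 CPM in SPF ethanol libraries and at 188.1, 214.1 and 179.9 CPM with MC903. In GF skin it was at 115.8, 134.6 and 131.5 CPM with ethanol and at 213.4, 235.6 and 216.3 CPM with MC903. It had the second smallest change, 0.97 in SPF skin (SE 0.1, adjusted p = 1.5e-06, edgeR) and 0.8 in GF skin (SE 0.1, adjusted p = 1.2e-05).

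S100a4, known from fibroblasts and leukocytes and as a partner of non-muscle myosin, had the smallest change of the family in each housing. Its SPF levels were 305.3, 216.9 and 197.3 CPM with ethanol and 308.9, 309.3 and 237.0 CPM with MC903. Its GF levels were 245.7, 288.9 and 275.5 CPM with ethanol and 414.4, 464.9 and 394.9 CPM with MC903. The SPF groups overlapped, since ethanol library 1 lay as high as the MC903 libraries, and the GF groups did not. The SPF change was 0.25 (SE 0.15, adjusted p = 0.15, edgeR), and the GF rise was 0.65 (SE 0.15, adjusted p = 0.002). The SPF value turned with the scaling, to -0.33 on library totals (adjusted p = 0.0584), and the GF value was then 0.14 (adjusted p = 0.399). Without SPF ethanol 1 the SPF change was 0.46 (adjusted p = 0.0055), and without SPF MC903 3 it was 0.37 (adjusted p = 0.0496). Of fibroblast markers 2 rose and 8 fell in each housing. Of macrophage and monocyte markers 10 of 12 rose in SPF skin and 9 in GF skin, with 1 lower in each. Of 7 T cell markers tested, 6 fell in SPF skin and 3 in GF skin, and none rose. Of 10 Langerhans and dendritic markers, 3 rose and 2 fell in SPF skin, and 2 rose and 1 fell in GF skin. In bulk skin, fewer cells of a type and less RNA per cell cannot be told apart, and the part of these cells in the S100a4 result was not tested.

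**Figure D2:**
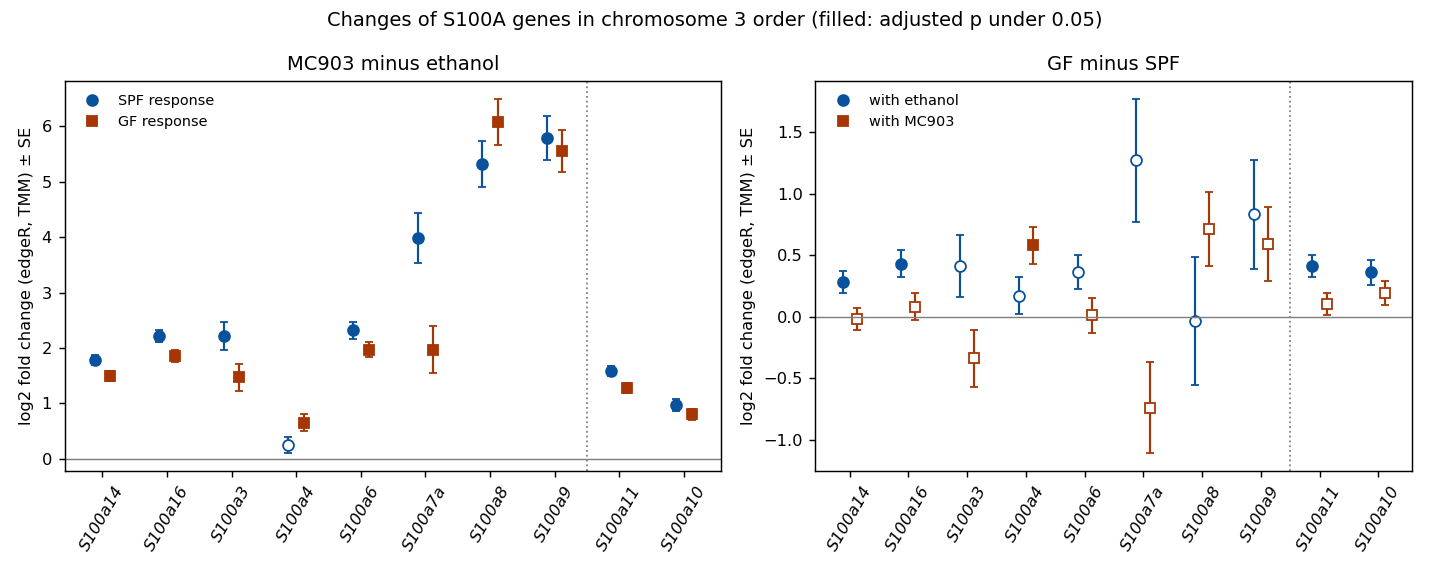
Log2 fold change of each member with its SE, in the order of the genes along chromosome 3, for MC903 minus ethanol (left) and GF minus SPF (right). Filled symbols passed the adjusted threshold, and the dotted line marks the gap between the blocks. The neighbours S100a7a, S100a8 and S100a9 carry the largest SPF changes, 3.99, 5.32 and 5.79. S100a4, further left, has the smallest at 0.25, a value that turns negative on library totals. In GF skin S100a7a is at 1.97, as is S100a6.

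Set out along the chromosome, the largest changes in SPF skin lay side by side, and in GF skin this held for S100a8 and S100a9 only. The 3 genes at the right end of the first block, S100a7a, S100a8 and S100a9, had SPF changes of 3.99, 5.32 and 5.79. Their GF changes were 1.97, 6.08 and 5.55, and that of S100a7a equalled that of S100a6, also 1.97. The SPF change of S100a7a rests on ethanol libraries with 2 to 14 counts. S100a3, S100a4 and S100a6 follow each other among the members, with S100a5 between the last pair, and their SPF changes of 2.22, 0.25 and 2.32 did not form a gradient. The block beyond the gap held S100a11 and S100a10 with 1.58 and 0.97. This is a description of 10 genes and was not tested.

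Neutrophils are a known source of calprotectin, so their markers are given beside it. Ly6g, the defining marker, had 0 counts in both ethanol groups and in SPF MC903 and 3 counts over the GF MC903 libraries, and Cxcr1 had 0, 0, 0 and 2. Among granule genes, Elane, Ngp, Camp and Ltf had at most 32 counts in any group of 3 libraries and Prtn3 at most 38, while Mpo went from 59 to 5 counts in SPF skin and from 41 to 8 in GF skin with MC903. Mmp9, also made by other cells, fell from 8.34 to 5.96 CPM and from 11.1 to 6.93 CPM. Of 9 neutrophil markers tested among 16, 4 rose and 2 fell in SPF skin and 5 rose and 1 fell in GF skin. Among those that rose, Fpr2 went from 4 to 29 counts in SPF skin, a log2 change of 3.25. In GF skin Mmp8 went from 1 to 35 counts (5.09) and Retnlg from 14 to 46 counts (2.13). In SPF skin Mmp8 went from 23 to 36 counts and Retnlg from 11 to 26, and Fpr2 went from 14 to 37 in GF skin. With MC903, Mmp8 stood at 0.329 CPM in SPF skin and 0.33 CPM in GF skin. Csf3r stood at 1.22 CPM with ethanol and 1.74 CPM with MC903 in SPF skin, and at 1.73 and 2.98 CPM in GF skin. Cxcr2, a chemokine receptor, rose from 3.89 to 10 CPM and from 3.51 to 14.2 CPM, and Itgam, shared with macrophages, from 5.53 to 18.6 CPM and from 7 to 12.4 CPM. Cxcr2, Itgam and Mmp9 made up most of the summed list. The summed list went from 19 to 22.3 CPM with ethanol up to 34.3 to 42.8 CPM with MC903 in SPF skin, and from 22.7 to 25.8 CPM up to 36.6 to 39.4 CPM in GF skin.  Markers of stressed keratinocytes rose 8 of 8 in each housing, from 318.3 to 407.3 CPM up to 33994.9 to 40688.8 CPM in SPF skin and from 480.9 to 609 CPM up to 18512.8 to 21910.4 CPM in GF skin. Their part in the S100a8 and S100a9 result was not tested.

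**Figure D3:**
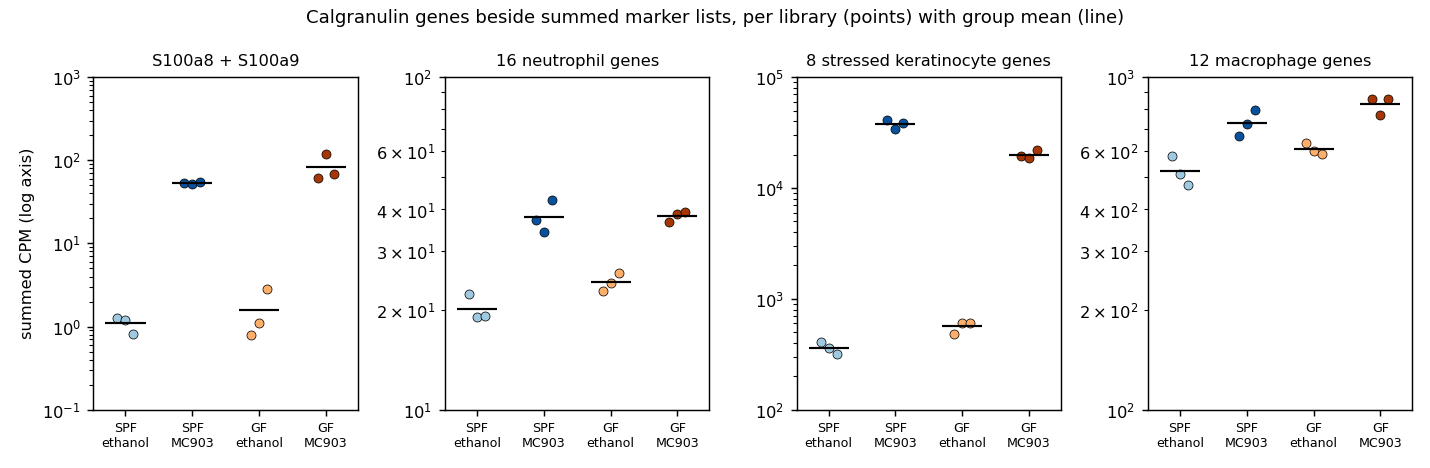
Summed CPM of S100a8 and S100a9, of 16 neutrophil genes, of 8 stressed keratinocyte genes and of 12 macrophage genes, 1 panel each, on log axes of different span. Points are libraries and lines are group means. In all 4 panels the MC903 libraries lie above the ethanol libraries of the same housing, for the neutrophil list at 34.3 to 42.8 CPM against 19 to 25.8 CPM.

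By the smallest root mean square difference of centred log2 CPM over the 12 libraries, S100a8 and S100a9 were among each other's 3 nearest genes of all tested. For S100a8 the nearest were Krt90 (0.43), S100a9 (0.46) and Defb14, a beta-defensin (0.54). For S100a9 they were Krtap21-1 (0.45), S100a8 (0.46) and Defb14 (0.46). The nearest gene to S100a7a was Pla2g3 (0.49), to S100a3 it was Gm14005 (0.22), and to S100a4 it was Limd2 (0.12). The remaining members had nearest genes at 0.06 to 0.14, namely Nfu1 for S100a10, Gng5 for S100a11, Farsb for S100a14, Ube2s for S100a16 and Mif for S100a6. The 12 libraries share the treatment contrast, so these are descriptions of likeness.

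Levels of different genes were compared on the deposited FPKM values, which are per length and are not TMM-scaled. In SPF skin with ethanol S100a4 (578.8), S100a6 (532.2) and S100a11 (503.6 FPKM) led the family, and the ranges of these neighbours overlapped. S100a14 (377), S100a16 (245.8) and S100a10 (183 FPKM) followed without overlap. S100a3 stood at 7.42 FPKM, S100a8 and S100a9 overlapped at 1.42 and 1.37 FPKM, and S100a7a was last at 0.22 FPKM. GF skin with ethanol had the same leading 3 in the order S100a6 (657.1), S100a11 (644.5) and S100a4 (627.4 FPKM), again with overlap. In both housings 6 abundant members thus stood far above the 4 scarce ones with ethanol.

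With MC903, S100a6 stood alone at the top, at 1776.7 FPKM in SPF skin and 1798.8 FPKM in GF skin. S100a11 came next at 1012.2 and 1087.4 FPKM, with no overlap above or below. S100a14 (874 and 864.3 FPKM) and S100a16 (763 and 809.1 FPKM) overlapped each other in both housings. S100a4 came after them, at 461 FPKM in SPF skin, and at 689.2 FPKM in GF skin, where its range overlapped that of S100a16. S100a9 and S100a8 moved ahead of S100a3, at 53.2 and 38.9 FPKM in SPF skin and at 80.1 and 63.9 FPKM in GF skin. S100a3 was then at 23.1 and 18.4 FPKM and S100a7a at 2.6 and 1.54 FPKM. In mean FPKM, S100a4 was lower with MC903 than with ethanol in SPF skin, the opposite of its TMM-scaled CPM.

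The summed FPKM of the 10 genes was 2430.9 ± 332.0 with ethanol and 5245.5 ± 491.1 with MC903 in SPF skin, and 2929.1 ± 191.8 and 5689.1 ± 434.7 in GF skin (SD, n = 3). The make-up shifted within that sum. S100a6 took 21.8% of it with ethanol and 33.8% with MC903 in SPF skin, and 22.4% and 31.5% in GF skin. S100a4 went from 23.6% to 8.8% in SPF skin and from 21.4% to 12.1% in GF skin. S100a16 went from 10.2% to 14.5% and from 10.9% to 14.3%, and S100a10 from 7.54% to 4.6% and from 7.75% to 4.86%. S100a11 and S100a14 stayed between 15% and 22% in all groups. Despite their fold changes, S100a8 and S100a9 together made up 0.0714% to 0.228% of the sum in ethanol libraries and 1.52% to 3.31% in MC903 libraries.

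**Figure D4:**
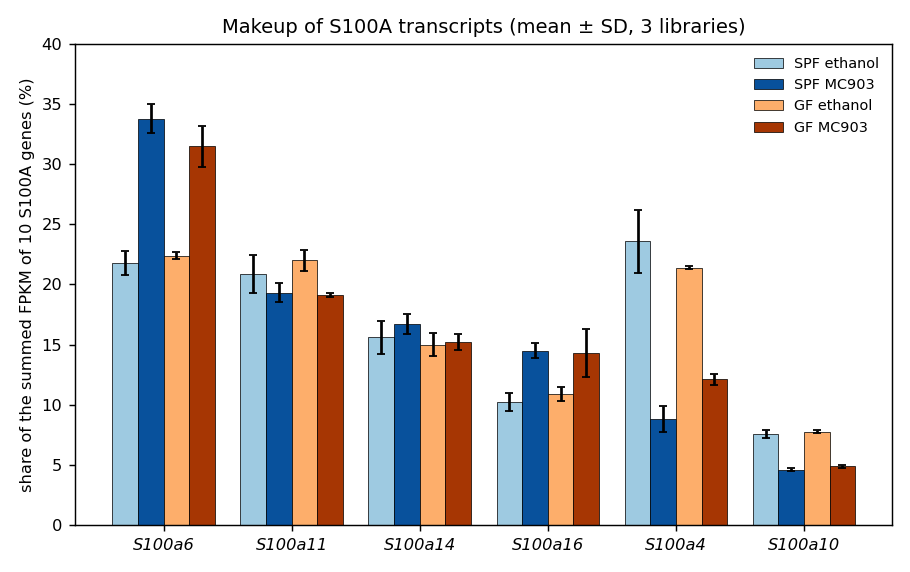
Share of the 6 abundant members in the summed FPKM of the 10 genes, in percent, as the mean of 3 libraries with bars for the SD, by group. S100a4 shrinks from 23.6% to 8.8% in SPF skin and from 21.4% to 12.1% in GF skin, while S100a6 grows from 21.8% to 33.8% and from 22.4% to 31.5%.

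The log2 ratio of S100a8 to S100a9 in FPKM, formed within each library, needs no scaling between libraries. With MC903 it was -0.61, -0.44 and -0.31 in SPF libraries and -0.27, -0.43 and -0.2 in GF libraries. The means were -0.45 ± 0.15 and -0.3 ± 0.12, and the difference of 0.15 gave p = 0.2 in an exact two-sided permutation test, whose smallest possible p with 3 libraries a group is 0.1. With ethanol the ratio ranged from -0.58 to 0.51 in SPF libraries and from -2.03 to -0.36 in GF libraries, where it rests on 9 to 90 counts per gene (difference -0.97, exact permutation p = 0.2). With MC903 the ratio spanned less than with ethanol, and the housings overlapped.

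The response to MC903 was compared between housings as the GF change minus the SPF change. Only 1 of 10 members, S100a7a, passed, with a smaller rise in GF skin, whereas 9.26% of all genes were called lower in this comparison and 17% in either direction. The median of the members was -0.3, beside 0.02 over all genes. The difference for S100a7a was -2.01 (SE 0.62, adjusted p = 0.045, edgeR). It rests on ethanol libraries with 2 to 20 counts. It passed in 5 of 19 fits, with values from -2.71 to -1.56 and adjusted p from 0.00619 to 0.102. Of the 12 fits that leave out 1 library it passed in 2, those without SPF ethanol 3 (-2.71, adjusted p = 0.0188) or SPF MC903 2 (-2.22, adjusted p = 0.0348), and did not pass without any 1 of the other 10.

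The other 9 members did not pass. S100a6, S100a10, S100a11, S100a14, S100a16 and S100a3, had differences of -0.35, -0.17, -0.31, -0.3, -0.36 and -0.75, with adjusted p from 0.11 to 0.44. S100a9 was at -0.24 (adjusted p = 0.81), and S100a8 and S100a4 at 0.76 (0.44) and 0.4 (0.23). Without GF ethanol 1 the S100a11 difference passed, at -0.39 (adjusted p = 0.0432), and without SPF ethanol 1 that of S100a3 did, at -1.08 (adjusted p = 0.032). The counts allowed SE of 0.12 to 0.21 for the abundant members and of 0.34 to 0.62 for S100a3, S100a9, S100a8 and S100a7a.

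With ethanol alone, 4 of 10 members were higher in GF skin and none lower, and of all genes 11.6% were called higher and 10.3% lower, 22% in either direction. The median of the members was 0.39, beside 0 over all genes, and GF and SPF libraries did not overlap for 5 members, the 4 called and S100a7a, as for 43.9% of all genes. S100a11 was higher by 0.41 (SE 0.09, adjusted p = 0.0088, edgeR), at 280.2 ± 28.5 against 211.1 ± 9.24 CPM. S100a16 was higher by 0.43 (SE 0.11, adjusted p = 0.015), S100a10 by 0.36 (SE 0.1, adjusted p = 0.02) and S100a14 by 0.28 (SE 0.09, adjusted p = 0.043). S100a6 had a similar size of difference, 0.36, but did not pass (SE 0.14, adjusted p = 0.085). For S100a7a, S100a9, S100a3, S100a4 and S100a8 the values were 1.27, 0.83, 0.41, 0.17 and -0.04, with adjusted p from 0.09 to 0.96. Without SPF ethanol 1, S100a6 (0.5, adjusted p = 0.033) and S100a3 (0.74, adjusted p = 0.0449) passed, and without SPF ethanol 3, S100a7a did (1.97, adjusted p = 0.0405).

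None of the 4 passed with a length trend removed, and S100a11 was then at 0.14 (adjusted p = 0.189). S100a11 passed in 12 of 12 fits that leave out 1 library. S100a16 did not pass without SPF ethanol 2 (adjusted p = 0.0518), SPF ethanol 3 (0.0523) or GF ethanol 4 (0.0781). S100a10 did not pass without SPF ethanol 2 or 3 or GF ethanol 4 or 5, with adjusted p up to 0.0936 without GF ethanol 4. S100a14 did not pass without any 1 of the 6 ethanol libraries or without GF MC903 5, and on library totals it was at 0.22 (adjusted p = 0.0679). In the same comparison skeletal muscle markers were higher in GF skin 5 of 5, at 1410 to 1522.2 CPM against 856.4 to 990.6 CPM. Langerhans and dendritic markers were higher 4 of 10, at 754.7 to 877.6 CPM against 499.1 to 632.6 CPM, and chondrocyte markers 2 of 4, at 397 to 430.7 CPM against 313.5 to 362 CPM. Their part in the S100A results was not tested.

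With MC903, 1 of 10 members, S100a4, was higher in GF skin and none was lower, and of all genes 20.8% were called higher and 20.9% lower, 41.7% in either direction. The median of the members was 0.09, beside 0.02 over all genes. S100a4 stood at 424.7 ± 36.1 CPM in GF skin and 285 ± 41.6 CPM in SPF skin, a difference of 0.58 (SE 0.15, adjusted p = 0.0089, edgeR) that passed in 12 of 12 fits leaving out 1 library and did not pass with a length trend removed (0.1, adjusted p = 0.547). In that fit 6 other members were called, all of them lower in GF skin. Of T cell markers 4 of 7 tested were higher, with a summed level of 22.6 to 26.3 CPM against 13.3 to 13.6 CPM. Of macrophage and monocyte markers 4 of 12 were higher and 8 were not called. Their summed ranges overlapped, at 767.2 to 860.8 CPM against 664.1 to 797.9 CPM. Of other lists, skeletal muscle markers were higher 5 of 5, at 917.5 to 984.8 CPM against 582.4 to 625 CPM. Basal keratinocyte markers were higher 5 of 8 and lower 2, and fibroblast markers were higher 2 of 10 and lower 2. Stressed keratinocyte markers were lower 6 of 8, Langerhans and dendritic markers higher 4 of 10, and hair markers higher 6 of 14 and lower 3. Their part in the S100a4 result was not tested.

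The calprotectin genes did not pass between the MC903 groups, although the libraries did not overlap. S100a8 was higher in GF skin by 0.71 (SE 0.3, adjusted p = 0.079, edgeR) and S100a9 by 0.59 (SE 0.3, adjusted p = 0.14), and GF MC903 4 alone held the highest value of each. S100a8 passed in 3 of 20 fits, which were limma voom (adjusted p = 0.014), a fit of only the 2 MC903 groups (adjusted p = 0.03) and the fit without GF ethanol 5 (adjusted p = 0.0233). With S100a4 these were the 3 members whose libraries did not overlap, beside 50.6% of all genes. S100a7a had a value of -0.74 (adjusted p = 0.13) and S100a3 of -0.34 (adjusted p = 0.28). The abundant members S100a6, S100a10, S100a11, S100a14 and S100a16 lay between -0.02 and 0.19.

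Transcript length moved with these comparisons. The members are short, with lengths implied by the deposited counts and FPKM values of 402 to 1095 bases. Of the 1574 tested genes in that range, 57.9% rose with MC903 in SPF skin and 62.8% in GF skin, with median changes of 0.67 and 0.8. Between housings 28.1% of them were higher in GF skin with ethanol (median 0.25) and 41.2% with MC903 (median 0.33). Against the median of genes of like length (20 bins), 9 members had the larger change in SPF skin, all but S100a4, and 8 in GF skin, all but S100a4 and S100a10. With ethanol 8 members lay above the median of their bin between housings, and with MC903 3 did.

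**Figure D5:**
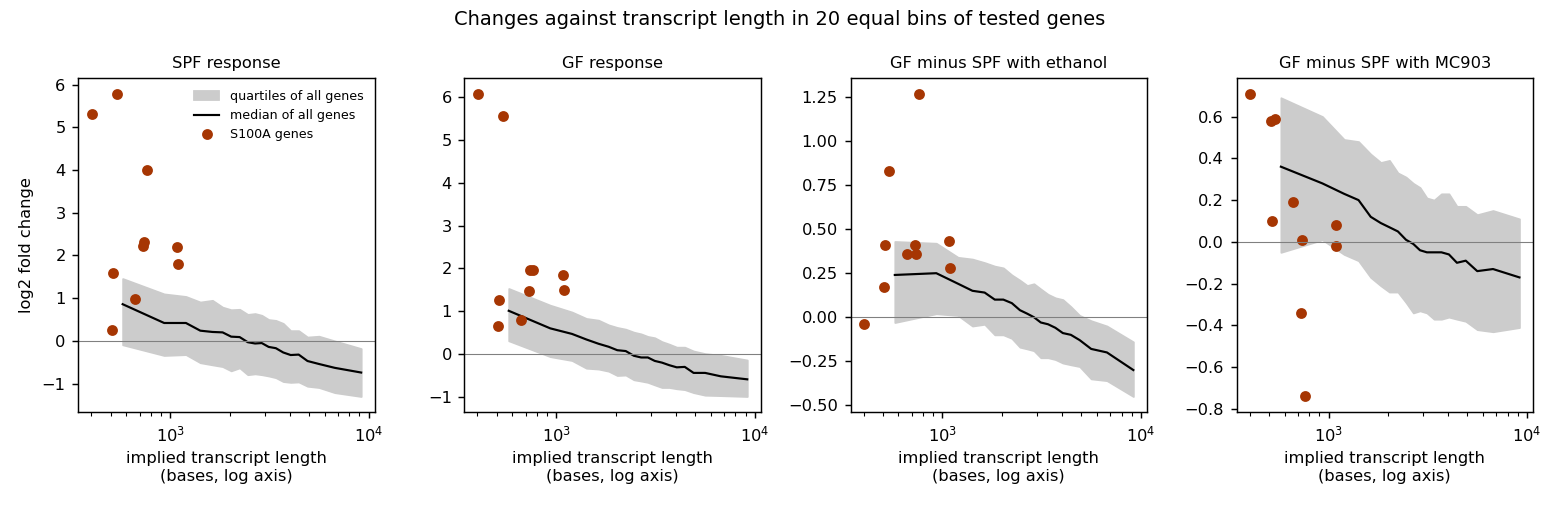
Log2 fold change against implied transcript length in bases (log axis), 1 panel per comparison, with the median (line) and quartiles (grey) of all tested genes in 20 bins and the 10 members as points. In SPF skin 9 members lie above the median of their bin, and between the MC903 groups 3 do.

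With a length trend removed from each library, the responses of 8 members kept their direction and their call in both housings. S100a8 was then at 4.42 in SPF skin and 4.91 in GF skin, S100a9 at 4.99 and 4.52, S100a6 at 1.67 and 1.17, and S100a11 at 0.74 and 0.23. S100a4 turned to -0.59 (adjusted p = 0.000691, edgeR) and -0.4 (adjusted p = 0.0111), and S100a10 to -0.06 in GF skin (adjusted p = 0.4) from 0.27 in SPF skin (adjusted p = 0.00258). None of the 4 housing differences with ethanol passed, at 0.14 for S100a11, 0.11 for S100a10, 0.06 for S100a14 and 0.22 for S100a16, with adjusted p from 0.105 to 0.599. The S100a4 difference with MC903 was 0.1 (adjusted p = 0.547), and 6 members passed as lower in GF skin with MC903, S100a7a (-1.15, adjusted p = 0.0329), S100a3 (-0.72, 0.016), S100a6 (-0.38, 0.0107), S100a11 (-0.38, 0.0006), S100a14 (-0.32, 0.00299) and S100a10 (-0.23, 0.0156). Between the responses, 6 members then passed as lower in GF skin, S100a7a (-2.17), S100a11 (-0.52), S100a6 (-0.49), S100a16 (-0.44), S100a14 (-0.38) and S100a10 (-0.34). The cause of the length trend was not tested.

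Outside the 10 members, 5 of 8 other genes named S100 were tested. S100g, or calbindin D9k, a textbook target of vitamin D in the gut, went from 1 count in the SPF ethanol group to 10.4 ± 2.5 CPM with MC903 and from 10 counts in the GF ethanol group to 28.1 ± 2.03 CPM (adjusted p = 3.2e-09 and 3.8e-09, edgeR). Its GF level with MC903 was 1.43 above its SPF level (adjusted p = 0.00029). S100a13 rose by 0.69 and 1.16, and S100a1, whose gene overlaps it, by 0.39 in GF skin, with 0.19 in SPF skin (adjusted p = 0.059). S100b, known from Schwann cells, fell by 0.59 in GF skin and stood at -0.14 in SPF skin (adjusted p = 0.18). S100pbp, which encodes a binding protein rather than an S100 protein, fell by 1.8 and 0.98. S100a2, S100a5 and S100z had at most 27 counts in any group and were not tested. Of the 5 tested, 2 rose and 1 fell in SPF skin and 3 rose and 2 fell in GF skin. Between the MC903 groups 3 of 5 were higher in GF skin, S100g, S100a13 (0.83) and S100a1 (0.66), beside 20.8% of all genes. Between the ethanol groups 2 of 5 were higher in GF skin, S100a1 (0.46) and S100b (0.33), beside 11.6% of all genes.

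Receptors and binding partners moved in both directions. Of 21 tested, 10 rose and 8 fell in SPF skin and 8 rose and 9 fell in GF skin, with medians of 0.02 and -0.05. Over all genes tested, 35% rose and 38.8% fell in SPF skin, and 33.4% rose and 35.1% fell in GF skin. Among receptors of calprotectin, Bsg (basigin) rose by 1.16 and 0.92, while Tlr4 fell by 0.94 and 0.88 and Cd36 by 1.31 and 1.18. Ager, which encodes RAGE, fell by 0.7 in SPF skin and stood at -0.07 in GF skin (adjusted p = 0.76). Nptn, another receptor, fell by 0.23 and 0.37. Mcam rose by 0.33 in SPF skin and stood at 0.02 in GF skin, where it was not called. Alcam fell by 0.83 in GF skin and stood at -0.62 in SPF skin, where it was not called. Cd69 was called in neither housing, at -0.93 and -0.04.

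Partners inside the cell followed their own courses. Anxa2, the partner of S100a10, rose by 0.71 and 0.79, and Ahnak, the scaffold of that complex, fell by 0.72 and 0.42. Anxa1, the partner of S100a11, rose by 0.53 in SPF skin and stood at -0.05 in GF skin. Cacybp and Sugt1, which bind S100a6, rose by 1.27 and 0.85 and by 1.21 and 0.77. Myh9, the myosin that S100a4 binds, rose by 0.95 and 0.48. The deiminase Padi1 fell by 2.36 and 1.44, against the rise of Padi3. On library totals Anxa1 was at -0.05 in SPF skin and Myh9 at -0.03 in GF skin, and with the length trend removed Ahnak was at 0.09 and 0.19.

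The S100-fused type proteins carry an S100 domain at the start of a long repeat protein and lie between the 2 blocks of S100 genes in the epidermal differentiation complex. Of 6 tested, 4 rose and 1 fell in each housing. Tchh (trichohyalin) rose by 7.96 and 6.72, Rptn (repetin) by 7.77 and 6.48, Tchhl1 by 8.54 and 7.47, and Crnn (cornulin) by 2.94 and 2.19. Flg2, a filaggrin relative, fell by 1.78 and 2.09, and Hrnr stood at 0.35 and 0.3 (adjusted p = 0.16 and 0.24). The estimates of the 4 that rose lay above those of the 6 abundant S100A members in each housing, a difference that was not tested.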

How the data were processed

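Total RNA of ear skin was extracted (RNeasy Fibrous Tissue) and sequenced on a HiSeq4000 after TruSeq preparation, per the labels. The tools StringTie 1.3.4d, HISAT2 2.1.0, Trimmomatic and bcl2fastq 2.20.0 and the mm10 build are listed in the submitters' processing notes. Strand use, annotation and tool order are not given in the sources. Per the file headers, the authors deposited an estimated count and an FPKM value for each gene and library. All estimated counts deposited are whole numbers and were used as they stand. No column belonged to other samples (0 unmapped).

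The main test was the quasi-likelihood test of edgeR (version 4.0.16, R 4.3.3) in 1 fit of 12 libraries with 1 coefficient per group, TMM scaling and filterByExpr (minimum count 10, minimum total 15). P-values were adjusted by Benjamini-Hochberg over 16466 genes, with a threshold of 0.05. No pair of replicates agreed within sampling noise, so none was merged as repeat sequencing and each library counted once. Such spread may be technical and does not show that the libraries came from different animals. The FPKM values gave levels between genes, the S100a8 to S100a9 ratio and implied lengths. The scripts were tested on simulated counts. Alternatives were library totals, DESeq2 1.42.0, limma voom (limma 3.58.1), no filter, a mean CPM of at least 1, a replicate block, only the groups compared, a length trend removed from each library (smoothing span 0.3), and leaving out each library.

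TMM factors differ by treatment, and on library totals the median log2 change of all genes shifts by -0.58 in SPF skin and -0.51 in GF skin. The members and gene lists were chosen with earlier results of these data known. Named were all members, all other S100 genes, receptors and partners as far as the results turn on them, and the nearest profiles over 12 libraries. The neutrophil genes named were chosen after their values were seen. Of the 24532 genes, 24462 matched RefSeq, the source of coordinates and promoters.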

Additional observations from a re-analysis of the deposited data

Results flagged for a closer look

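The difference between the GF and the SPF response to MC903 was tested with edgeR and adjusted over all genes. It passed for 1 of 10 members and for 1 of 5 other S100 genes tested. Of 21 receptors and binding partners tested, 1 was called higher and 6 lower, and of 6 S100-fused proteins 2 were called lower. Over all genes tested, 17% were called in either direction. S100a7a rose less in GF skin, with a difference of -2.01 (adjusted p = 0.045), and it rests on 2 to 20 counts in each ethanol library. S100b, known from Schwann cells, had -0.45 (adjusted p = 0.027).

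Among receptors and partners the difference was -0.24 for Bsg (adjusted p = 0.049), -0.58 for Anxa1 (adjusted p = 0.0034) and -0.37 for Anxa11 (adjusted p = 0.013), the last 2 being annexins that S100 proteins bind. It was -0.46 for the myosin Myh9 (adjusted p = 0.0033), -0.42 for Cacybp (adjusted p = 0.022) and -0.44 for Sugt1 (adjusted p = 0.021), both partners of S100a6. Ahnak was the exception, with 0.3 (adjusted p = 0.048), a smaller fall in GF skin. Among the S100-fused proteins Rptn had -1.29 (adjusted p = 0.0075) and Tchh -1.24 (adjusted p = 0.0071). Of all genes tested, 7.75% were called higher and 9.26% lower in this comparison.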

How the results depend on the processing

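On library totals the response to MC903 changed sign in SPF skin for S100a4 (-0.33), Mcam (-0.24), Anxa1 (-0.05) and Anxa5 (-0.32), and in GF skin for S100a1 (-0.12), Anxa5 (-0.33) and Myh9 (-0.03). With the length trend removed it changed sign in SPF skin for S100a4 (-0.59) and Ahnak (0.09), and in GF skin for S100a4 (-0.4), S100a10 (-0.06), S100a1 (-0.51), Anxa5 (-0.03) and Ahnak (0.19). The length correction also turned the housing difference with ethanol of S100a4 (-0.1), and those with MC903 of S100a6 (-0.38), S100a10 (-0.23), S100a11 (-0.38) and S100a16 (-0.22). DESeq2 turned S100a6 between MC903 groups to -0.01. The cause of these reversals was not tested.

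The difference between responses called 1 member, 0 on library totals, with limma voom, without a filter, at a mean CPM of at least 1 (where S100a7a was not tested) and with the replicate block, 6 with the length trend removed, and 0 to 1 without 1 library. The housing difference with ethanol called 4, 3 on library totals, 6 with DESeq2, 0 with the length trend removed and 1 to 5 without 1 library. With MC903 it called 1, 2 with limma voom and with only the groups compared, 6 with the length trend removed, all lower in GF skin, and 1 to 2 without 1 library. Leaving out 1 library also turned S100a9 in the difference between responses (-0.62 to 0.39), S100a8 between ethanol groups (-0.98 to 0.31), and S100a6 (-0.1 to 0.13) and S100a14 (-0.09 to 0.08) between MC903 groups. None of these 4 had passed. The genes called between ethanol groups numbered 3616 in all, 2147 with the length trend removed and 1475 to 2354 without GF ethanol 4, SPF ethanol 2 or SPF ethanol 3.

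Whether equal numbers mark the same animal is not given. Between ethanol and MC903 libraries of equal number, correlations of deviations were 0.01, 0.07 and 0.14 in SPF skin and 0.02, -0.02 and 0 in GF skin. These run over all genes, within groups of 3 libraries, and cannot decide whether the libraries are paired. With the replicate block, 10 members were called in SPF skin, 10 in GF skin and 0 in the difference between responses. The member gained in SPF skin was S100a4, at 0.26 (SE 0.09, adjusted p = 0.0315, edgeR). The block could not be fitted for the housing comparisons. The SPF and GF responses of the 8 members other than S100a4 and S100a10 kept direction and call in every fit made. The housing differences in the ratio of S100a8 to S100a9 kept their sign without any 1 library. Low counts limit S100a7a, S100a8 and S100a9 with ethanol.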
